A study of Mus musculus with 6 samples.

Results

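The unfolded protein response and the linked integrated stress response were read in mouse prostate tumor cells with and without androgen withdrawal. Chosen with earlier results of these data known, the module was a list of 37 named pathway genes, and its rule used no measured value. Of these, 35 had a transcript cluster annotated with only their own symbol, out of 30142 genes tested. Pdia4 and Manf lie on clusters that also carry another gene (Mir704 and Rbm15b) and were not analysed here. Each sample was read on 1 Affymetrix MTA 1.0 array, which covers whole transcripts, from RNA of tumor cells sorted from MCRedAL prostate tumor allografts in male mice. The sort kept cells with the red fluorescent protein mCherry and without CD45, CD11b or F4/80, a macrophage antigen. The 3 untreated samples, titled Intact, came from tumors that the submitters call castration sensitive. The other 3 samples, titled 7dPC, came from tumors of mice given degarelix under the skin once tumors reached about 500 mm2, the unit given in the labels. Degarelix blocks the receptor of gonadotropin-releasing hormone and so withdraws testicular androgen. The labels do not explain the tag 7dPC, so no sampling time is given, and they state neither the host strain nor the age of the mice. Both groups are allografts of the same tumor model. Samples are called biological replicates, and RNA integrity numbers were at least 9.

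Proteins that enter the endoplasmic reticulum (ER) are folded there by chaperones and by enzymes that form disulfide bonds, and those that fail to fold are returned to the cytosol and degraded, a process called ERAD. When unfolded protein accumulates, the sensor IRE1 (gene Ern1) splices the mRNA of the transcription factor XBP1, the sensor ATF6 is cut to release a transcription factor, and the kinase PERK (gene Eif2ak3) slows translation and favours production of the transcription factor ATF4. ATF4 also responds to amino acid shortage and other stresses through related kinases, which is why its branch is called the integrated stress response. Secretory epithelia such as that of the prostate export large amounts of protein and depend on this system. The array reads total mRNA of each gene, so it shows neither XBP1 splicing, nor ATF6 cleavage, nor phosphorylation of PERK or its substrate.

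The best-known control sequence of the ER chaperone genes, the ER stress response element (ERSE), is shown first because it is a feature that the list did not use and that can be counted by arm. It was searched on both strands as CCAAT and CCACG with any 9 bases between them, in windows from 250 bases before to 50 bases after each RefSeq start (GRCm38.p6). A window was found for 32 of the 37 members. It held an ERSE in 9 of them (28.1%), against 37 of 27025 genes (0.137%) with a window. By arm, it was found in 6 of 12 members of the ATF6 arm, 3 of 12 of the IRE1/XBP1 arm and 0 of 8 of the PERK/ATF4 arm. The element was originally described on genes of this kind, so its presence among them is background. Each match is printed in the element's own direction with its fixed letters in capitals and the spacer in lower case.
Hspa5: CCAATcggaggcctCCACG
Pdia6: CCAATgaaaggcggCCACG
Creld2: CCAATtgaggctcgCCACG
Calr: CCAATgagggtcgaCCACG
Canx: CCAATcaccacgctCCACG
Hsp90b1, upstream match: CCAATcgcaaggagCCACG
Hsp90b1, downstream match: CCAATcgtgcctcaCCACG
Syvn1: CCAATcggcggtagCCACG
Dnajc3: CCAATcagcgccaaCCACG
Derl3: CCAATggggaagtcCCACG
The Hspa5 match lay at positions -65 to -47 counted from the start, with the base before the start as -1, and that of Pdia6 at -98 to -80. A shorter relative, ERSE-II (ATTGG and CCACG with any 1 base between them, both strands), was found in Herpud1 at -52 to -42 and in Dnajb11 at 8 to 18, against 0.044% of all genes with a window. The ERSE and ERSE-II share the letters CCACG, and ATTGG is the reverse complement of CCAAT. The element bound by ATF4 with C/EBP partners, searched as TGATGNAA on both strands, was found in Chac1 (-193 to -186), Asns (-23 to -16), Trib3 (15 to 22) and Herpud1 (-112 to -105), which is 12.5% of the members with a window against 4.51% of all genes. The core TGACGTGG, known as the unfolded protein response element, was found in 0 of the 32 windows and in 0.714% of all genes. A match describes letters and not a bound site, and a missing match describes these windows only.

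The 250 bases before the start are given for 4 members with different outcomes: Pdia6, which rose and holds an ERSE, Dnajb9, the largest rise in the module and without an ERSE match in its window, and Chac1 and Asns, which both hold the C/EBP-ATF element and had changes of opposite sign. Sequences run 5' to 3' along the gene, and capitals mark the ERSE with its spacer in Pdia6 and the C/EBP-ATF element in Asns and, read from the opposite strand, in Chac1.
Pdia6, chr12:17266339-17266588, plus strand: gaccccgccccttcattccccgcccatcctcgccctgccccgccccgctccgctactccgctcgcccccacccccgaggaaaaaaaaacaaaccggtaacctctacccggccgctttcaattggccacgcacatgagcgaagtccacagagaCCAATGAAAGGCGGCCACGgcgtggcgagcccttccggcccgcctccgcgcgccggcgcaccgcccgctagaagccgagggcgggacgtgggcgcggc
Dnajb9, chr12:44210069-44210318, minus strand: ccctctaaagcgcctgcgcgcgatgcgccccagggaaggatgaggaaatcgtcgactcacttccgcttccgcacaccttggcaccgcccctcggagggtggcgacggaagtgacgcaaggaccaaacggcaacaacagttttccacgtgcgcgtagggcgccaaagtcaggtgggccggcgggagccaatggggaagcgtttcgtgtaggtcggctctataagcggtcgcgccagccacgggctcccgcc
Chac1, chr2:119350992-119351241, plus strand: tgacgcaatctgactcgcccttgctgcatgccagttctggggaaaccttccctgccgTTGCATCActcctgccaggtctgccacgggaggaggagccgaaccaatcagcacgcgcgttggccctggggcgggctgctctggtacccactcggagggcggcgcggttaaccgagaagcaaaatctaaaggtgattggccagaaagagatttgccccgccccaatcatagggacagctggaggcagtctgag
Asns, chr6:7693210-7693459, minus strand: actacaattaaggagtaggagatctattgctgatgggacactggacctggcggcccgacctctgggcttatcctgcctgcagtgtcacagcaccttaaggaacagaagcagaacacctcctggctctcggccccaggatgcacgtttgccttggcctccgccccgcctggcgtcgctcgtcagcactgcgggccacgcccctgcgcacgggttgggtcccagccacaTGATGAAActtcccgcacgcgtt

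**Figure D1:**
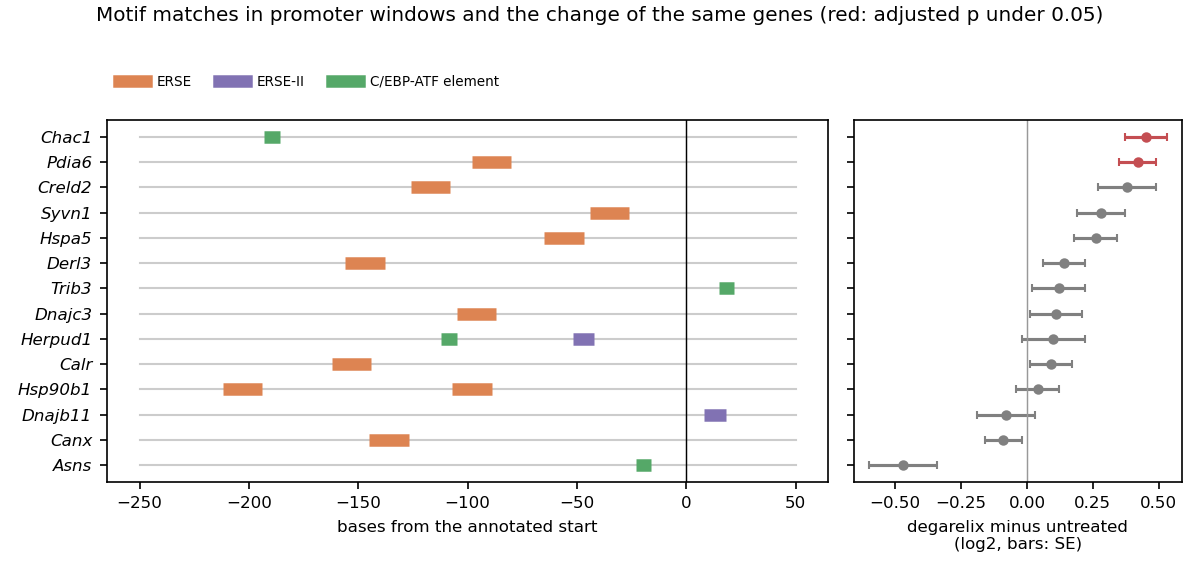
The left panel maps matches to the ERSE (orange), ERSE-II (purple) and C/EBP-ATF element (green) in the promoter windows of the 14 members that hold one, with distance from the annotated start in bases. The right panel shows the change of the same genes, as the log2 value after degarelix minus that in untreated samples, with its SE, and only Chac1 and Pdia6 passed the test.

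The sorted cells were checked against cell type markers. Of 7 measured epithelial markers 1 passed the test: the keratin gene Krt19, at 7.04 to 7.54 (log2) in untreated and 9.10 to 9.25 in degarelix samples, rose by 1.88 (SE 0.12, limma adjusted p = 8.85e-05), more than any member of the module. Krt8 was at 11.25 to 12.09, Cldn4 at 9.12 to 10.46 and Hoxb13, a prostate homeobox gene, at 6.86 to 7.22, whereas Epcam (3.79 to 3.98), Cdh1 (4.80 to 5.07) and Krt18 (5.38 to 5.82) were no brighter than the background probe sets, whose highest value was 6.93. Untreated replicate 1 was the lowest sample of Krt8 and Cldn4, at 11.25 and 9.12. The summed epithelial level (log2) was 11.73 in that sample and 12.10 to 12.58 in the others. Of 13 measured leukocyte markers 1 was above background on at least 3 arrays. Their summed level (log2) was 10.62 in untreated replicate 1, 9.18 and 9.75 in the other untreated samples and 9.20 to 9.26 in degarelix samples, and 0 of them passed the test in limma (0 higher and 2 lower at an unadjusted p under 0.05). Lyz2 was at 9.02, 6.26 and 7.65 and Tyrobp at 8.39, 6.11 and 6.84 in untreated replicates 1 to 3, each above background on 2 arrays. In degarelix samples they were at 5.51 to 6.27 and 6.06 to 6.21. Of the 13 leukocyte markers 9 had changes below 0 and 4 above. Of 9 fibroblast markers 8 were above background, with a summed level of 11.62 to 11.86 in untreated and 11.53 to 12.16 in degarelix samples. Dcn and Fbln1 rose by 1.46 (SE 0.29) and 1.07 (SE 0.11). Postn and Acta2 had differences of the opposite sign, -0.68 (SE 0.19, limma adjusted p = 0.0517, without overlap) and -0.37 (SE 0.14, limma adjusted p = 0.15), and the other 5 had differences of 0.14 to 1.19 that did not pass. Degarelix replicate 3 was highest for 7 of the 9. Plasma cells depend strongly on the unfolded protein response. Of their 8 markers, which include the member Derl3, 1 was above background on at least 3 arrays, with a summed level of 9.26 to 9.29 and 9.41 to 9.51, and Irf4 rose by 0.42 within the background range. Endothelial markers had 1 of 7 above background, with summed levels of 8.94 to 9.40 and 8.96 to 9.03. The part of other cells in the results below was not tested, and in sorted populations a change in the number of cells cannot be told apart from a change in RNA per cell.

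Degarelix was followed by a rise of 6 members of the module, while the other 29 did not pass the test. In limma, with Benjamini-Hochberg adjustment over all genes at 0.05, 6 of the 35 members (17.1%) were higher, against 4.19% of all genes tested. Among the 7536 brightest genes 7.6% were higher and 16.4% lower. The members were chosen with earlier results known, so these shares are descriptive. The 6 members that rose were Dnajb9, Ddit3, Xbp1, Edem2, Chac1 and Pdia6, with rises of 1.34-fold to 1.67-fold. The count was 11 with quantile normalization or cyclic loess of the arrays, and 4 with median centring or without any 1 of the degarelix samples. Over all 30142 genes, 1262 were higher in the main fit, 1646 with quantile normalization, 1550 with cyclic loess and 691 with median centring. Without degarelix replicate 1, 2 or 3 the genes higher numbered 624, 720 and 1651. No member was lower (0 of 35, against 7.51% of all genes), and 2 members, Asns and Ssr1, were lower at an unadjusted p under 0.05. The median change of the members was 0.13 (log2), beside 0.04 for all genes and -0.10 for the 7536 brightest genes. It was 0.07 with array weights, 0.08 with median centring, 0.20 with quantile normalization and 0.23 with cyclic loess. Changes were above 0 for 28 members and below 0 for 7, and they spanned -0.47 to 0.74. The 3 degarelix values all lay above the 3 untreated values for 14 members (40.0%), against 14.8% of all genes, and all below for 3 members (Asns, Canx and Ssr1), against 16.4%. On at least 3 arrays 33 members were above the brightest background probe set of that array; Derl2 and Derl3 were not.

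**Figure D2:**
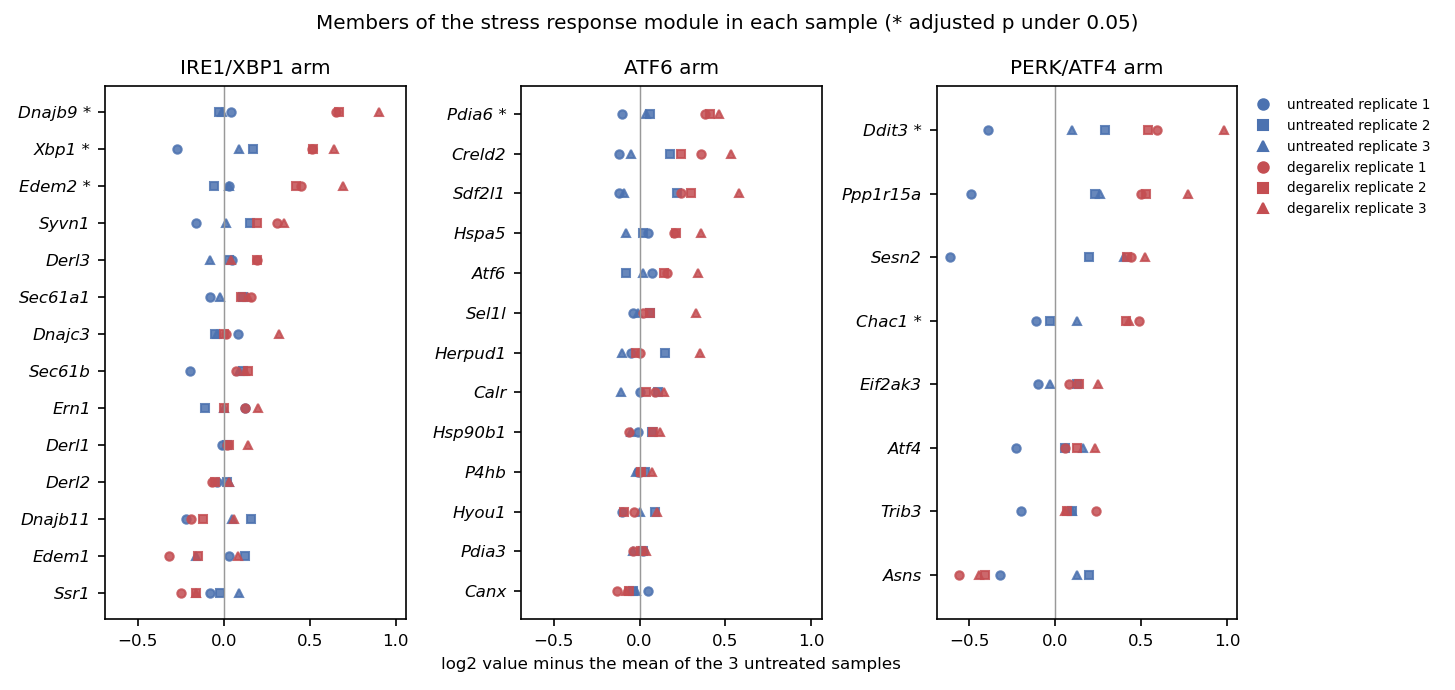
Each row is a member and each symbol a sample, placed at its log2 value minus the mean of the 3 untreated samples (blue untreated, red degarelix; circle, square and triangle for replicates 1, 2 and 3). The 6 members marked with an asterisk passed the test, and untreated replicate 1 lies to the left in 7 of the 8 rows of the PERK/ATF4 arm as the lowest sample.

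None of the 3 sensors passed the test in limma, and 1 of them, Atf6, was higher at an unadjusted p under 0.05. Ern1, which encodes IRE1, was at 9.20, 8.97 and 9.08 (log2) in untreated replicates 1 to 3 and at 9.20, 9.08 and 9.28 in degarelix replicates 1 to 3. The groups overlapped, and the difference of 0.10 (SE 0.09, limma adjusted p = 0.469) did not pass the test. Atf6 was at 9.14, 8.99 and 9.09 untreated and at 9.23, 9.21 and 9.41 after degarelix. Its degarelix values all lay above the untreated ones, by 0.21 on average (SE 0.08), short of the threshold (limma adjusted p = 0.148). Eif2ak3, which encodes PERK, was at 6.79, 7.02 and 6.86 and then at 6.97, 7.03 and 7.14, with overlapping groups, a difference of 0.16 (SE 0.08, limma adjusted p = 0.276) and values near the top of the background range.

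Of 3 transcription factors downstream of the sensors 2 rose, beside 4.19% of all genes. Xbp1 was at 9.78, 10.22 and 10.14 in untreated and at 10.56, 10.57 and 10.69 in degarelix samples. The groups did not overlap, and Xbp1 rose by 0.56 (SE 0.12, 1.47-fold, limma adjusted p = 0.0173). Ddit3, which encodes the stress-induced factor CHOP, was at 8.93, 9.61 and 9.42 and then at 9.91, 9.86 and 10.30. On this cluster, whose identifier marks it as unmapped, it rose by 0.70 (SE 0.18, 1.63-fold, limma adjusted p = 0.0381), with no overlap and with untreated replicate 1 lowest and degarelix replicate 3 highest. A second cluster of Ddit3 gave 9.03, 9.32 and 9.09 against 9.52, 9.47 and 9.87, a rise of 0.47 (SE 0.12, limma adjusted p = 0.0404). Atf4 was at 9.29, 9.58 and 9.68 and then at 9.58, 9.65 and 9.75, with overlapping groups and a difference of 0.15 (SE 0.11, limma adjusted p = 0.416). ATF4 protein is set largely at translation, which the array does not read. Of the 6 calls, those of Xbp1 and Ddit3 were lost under some alternatives. Xbp1 did not pass without degarelix replicate 1, 2 or 3 (limma adjusted p = 0.0569, 0.0519 and 0.0514). Ddit3 did not pass without untreated replicate 3 (limma adjusted p = 0.0774) or without degarelix replicate 1, 2 or 3 (0.0922, 0.0651 and 0.0888). Both calls ended with median centring of the arrays (limma adjusted p = 0.0613 for Xbp1 and 0.102 for Ddit3).

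Of 8 measured ER chaperones and their cofactors, 1 rose (12.5%, beside 4.19% of all genes). Dnajb9, which encodes a cofactor of the chaperone BiP that also restrains IRE1 and is a standard target of XBP1, was at 10.07, 10.00 and 10.02 in untreated and at 10.68, 10.70 and 10.93 in degarelix samples. The untreated values had an SD of 0.04 and all degarelix values were higher, with a rise of 0.74 (SE 0.08, 1.67-fold, limma adjusted p = 0.00115). Hspa5, which encodes BiP itself, the main ER chaperone and the usual reporter of the response, was at 10.98, 10.95 and 10.85 and then at 11.13, 11.14 and 11.29. Its groups did not overlap, but the difference of 0.26 (SE 0.08, limma adjusted p = 0.0616) missed the threshold. Hspa5 passed in 4 of 14 alternatives (limma adjusted p = 0.0187 to 0.0408). These were quantile normalization, cyclic loess, array weights and the filter on dim genes. It did not pass with median centring (limma adjusted p = 0.18) or on leaving out any sample (0.0545 to 0.2). Creld2, a secreted ER stress protein gene, had 11.63, 11.93 and 11.70 against 12.11, 11.99 and 12.28, a difference of 0.38 (SE 0.11, limma adjusted p = 0.0539) without overlap. Sdf2l1, which keeps BiP clients soluble, had 10.31, 10.65 and 10.34 against 10.67, 10.73 and 11.01, a difference of 0.37 (SE 0.12, limma adjusted p = 0.0895) without overlap. Creld2 passed in 5 of the 14 alternatives and Sdf2l1 in 3. The other chaperone genes did not pass the test: Hsp90b1, which encodes GRP94, at 0.04 (SE 0.08), Hyou1, a nucleotide exchange factor gene, at 0.00 (SE 0.08), Dnajc3, whose product inhibits PERK, at 0.11 (SE 0.10), and Dnajb11, another BiP cofactor gene, at -0.08 (SE 0.11). Degarelix replicate 3 was the highest sample for 7 of these 8 genes.

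Of 3 measured disulfide isomerases and 2 lectin chaperones 1 gene rose, beside 4.19% of all genes. Pdia6, an isomerase that also acts on IRE1 signalling, was at 11.00, 11.16 and 11.14 in untreated and at 11.48, 11.51 and 11.56 in degarelix samples. These values did not overlap, and Pdia6 rose by 0.42 (SE 0.07, 1.34-fold, limma adjusted p = 0.00818). P4hb, the classical protein disulfide isomerase gene, was at 11.73, 11.77 and 11.72 and then at 11.74, 11.75 and 11.81. Its difference of 0.03 (SE 0.06, limma adjusted p = 0.8) and that of Pdia3 at 0.00 (SE 0.07, limma adjusted p = 0.988), the isomerase that works with the lectin chaperones, were within the spread of the samples. Calreticulin (Calr) and calnexin (Canx), which hold glycoproteins during folding, differed by 0.09 (SE 0.08) and -0.09 (SE 0.07) and did not pass the test.

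Of 8 members that act in ERAD, 1 rose (12.5%, beside 4.19% of all genes). Edem2, which starts the mannose trimming that marks misfolded glycoproteins, was at 10.30, 10.21 and 10.30 in untreated and at 10.72, 10.69 and 10.96 in degarelix samples. It rose by 0.52 (SE 0.09, 1.43-fold, limma adjusted p = 0.00748) without overlap. Its relative Edem1, a known XBP1 target, was at 9.50, 9.59 and 9.31 and then at 9.15, 9.32 and 9.55, with overlapping groups and a difference of -0.13 (SE 0.12, limma adjusted p = 0.507). Syvn1, the ubiquitin ligase of the pathway, had values of 8.29, 8.60 and 8.46 against 8.76, 8.64 and 8.80, which did not overlap, and a difference of 0.28 (SE 0.09, limma adjusted p = 0.0951). It passed in 2 of 14 alternatives. Its partner Sel1l differed by 0.13 (SE 0.09), and Herpud1, a stress-induced membrane protein of the same complex, by 0.10 (SE 0.12). In Herpud1, degarelix replicate 3 (11.43) stood above degarelix replicates 1 and 2 (11.08 and 11.06). The derlins, membrane proteins of the exit channel, differed by 0.06 (Derl1, SE 0.07), -0.03 (Derl2, SE 0.07) and 0.14 (Derl3, SE 0.08), the last 2 at levels within the background range. Of the translocation genes, Sec61a1 and Sec61b, subunits of the channel into the ER, differed by 0.13 (SE 0.07) and 0.11 (SE 0.09). Ssr1, a subunit of the translocon-associated complex, was at 9.80, 9.86 and 9.97 and then at 9.63, 9.72 and 9.72, lower by 0.18 on average without overlap, and missed the threshold (limma adjusted p = 0.152).

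Of 5 effectors of the integrated stress response 1 rose, beside 4.19% of all genes. Chac1, whose product degrades glutathione and which is induced through ATF4, was at 7.58, 7.66 and 7.82 in untreated and at 8.18, 8.10 and 8.12 in degarelix samples. It rose by 0.45 (SE 0.08, 1.37-fold, limma adjusted p = 0.009) without overlap. Asns, the asparagine synthetase gene and a classical ATF4 target, was at 9.14, 9.66 and 9.59 and then at 8.90, 9.05 and 9.02. All degarelix values lay below the untreated ones, with a difference of -0.47 (SE 0.13, limma adjusted p = 0.0508), just short of the threshold. Without untreated replicate 1 the difference of Asns was -0.63 and passed (limma adjusted p = 0.00208). On leaving out any other sample it was -0.50 to -0.37 and did not pass (limma adjusted p = 0.084 to 0.177). Asns passed as lower in 6 of 14 alternatives, among them the block for the replicate number (limma adjusted p = 0.0269). Ppp1r15a, which encodes GADD34 and restores translation, was at 7.85, 8.57 and 8.60 and then at 8.84, 8.87 and 9.11. Its values did not overlap, and the difference of 0.60 (SE 0.19, limma adjusted p = 0.0739) did not pass. Without untreated replicate 1 the difference was 0.36 and passed (limma adjusted p = 0.0428). On leaving out any other sample it did not pass (limma adjusted p = 0.071 to 0.159). Ppp1r15a passed in 6 of 14 alternatives, among them the block for the replicate number (limma adjusted p = 0.0376). Sesn2, a stress-induced regulator of growth signalling, was at 7.72, 8.53 and 8.73 and then at 8.77, 8.75 and 8.85, with no overlap but an untreated SD of 0.54 and a difference of 0.46 (SE 0.22, limma adjusted p = 0.231), or 0.16 without untreated replicate 1. Trib3, a pseudokinase gene downstream of CHOP, was at 6.61, 6.91 and 6.91 and then at 7.05, 6.88 and 6.87, with overlapping groups and a difference of 0.12 (SE 0.10).

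**Figure D3:**
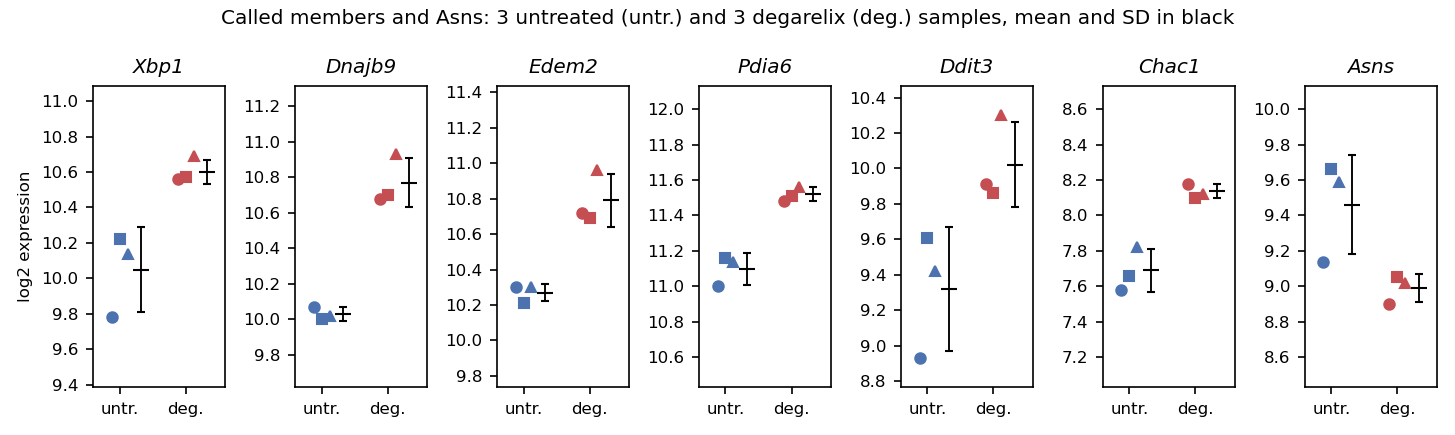
Log2 expression of the 6 members that passed the test and of Asns in 3 untreated (blue) and 3 degarelix (red) samples, with circle, square and triangle for replicates 1, 2 and 3 and the mean with SD in black; each panel spans the same log2 range. In all 7 panels the groups do not overlap, and untreated replicate 1 is the lowest sample of Xbp1, Pdia6, Ddit3 and Chac1.

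Each member was assigned to 1 arm, although many targets are shared. Of the IRE1/XBP1 arm 3 of 14 members rose (Xbp1, Dnajb9 and Edem2), of the ATF6 arm 1 of 13 (Pdia6) and of the PERK/ATF4 arm 2 of 8 (Ddit3 and Chac1), and 0 fell in each (1, 0 and 1 were lower at an unadjusted p under 0.05 in limma). As shares, 21.4%, 7.7% and 25.0% rose, beside 4.19% of all genes and 7.6% of the 7536 brightest genes. The ATF6 share is 1 gene in the main fit. With quantile normalization or cyclic loess, Hspa5, Creld2 and Sdf2l1 of this arm passed too (limma adjusted p = 0.0128 to 0.0378). So did Syvn1 of the IRE1/XBP1 arm and Ppp1r15a of the PERK/ATF4 arm. The median change was 0.11 in the IRE1/XBP1 arm, 0.10 in the ATF6 arm and 0.30 in the PERK/ATF4 arm. Differences between arms were not tested, since the members were chosen with earlier results known. With Pdia6 and Sdf2l1 counted in the IRE1/XBP1 arm and Syvn1 in the ATF6 arm, 4 of 15 members of the former rose and 0 of 12 of the latter (4 were higher at an unadjusted p under 0.05 in limma), and the medians were the same.

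The arms varied between single samples. The median of the PERK/ATF4 members, as a deviation from each gene's mean over the 6 arrays, was -0.32 in untreated replicate 1, -0.02 and 0.00 in untreated replicates 2 and 3, and 0.19, 0.12 and 0.19 in degarelix replicates 1 to 3. Untreated replicate 1 was the lowest of the 6 samples for 7 of the 8 members of this arm (87.5%). It was lowest for 19.0% of all genes and 32.4% of the 7536 brightest genes. The share was 42.9% in the IRE1/XBP1 arm, 38.5% in the ATF6 arm and 25.0% to 57.9% in the 6 further lists described below. Without untreated replicate 1 the median change of the PERK/ATF4 arm was 0.13. Within the untreated group it stood below the mean of the other 2 samples by a median of 0.41 for this arm (-0.41), beside 0.00 for all genes, with the widest gaps at Sesn2 (-0.92), Ppp1r15a (-0.73) and Ddit3 (-0.59). The same sample had the highest summed level of leukocyte markers and the lowest of epithelial markers, given above. It also had the highest summed level of endothelial markers (9.40). The part of these cells was not tested. For the ATF6 arm the sample apart was degarelix replicate 3, at 0.24, against -0.01 and 0.01 in degarelix replicates 1 and 2 and -0.08, 0.02 and -0.09 in untreated replicates 1 to 3. It was the highest sample for 12 of 13 members of this arm and for 25 of the 35 members (71.4%), against 12.2% of all genes and 21.3% of the 7536 brightest genes. Without it the median change of the ATF6 arm was 0.04. Degarelix replicate 3 also had the highest fibroblast markers, whose part was not tested. The IRE1/XBP1 medians were -0.10, 0.00 and -0.09 in untreated and 0.04, 0.02 and 0.13 in degarelix replicates 1 to 3. Dnajb9, Edem2, Pdia6 and Chac1 passed the test on leaving out any of the 6 samples, with limma adjusted p up to 0.00633, 0.0313, 0.0388 and 0.0444.

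**Figure D4:**
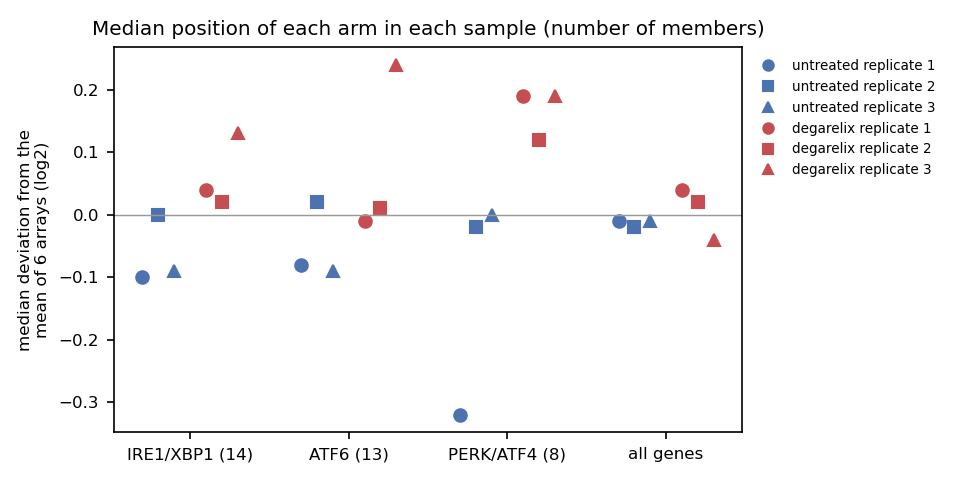
Median over the members of each arm, and over all genes tested, of the log2 value minus the gene's mean over the 6 arrays, for each sample (blue untreated, red degarelix). Untreated replicate 1 (-0.32) stands apart in the PERK/ATF4 arm and degarelix replicate 3 (0.24) in the ATF6 arm.

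Further genes of the pathway, outside the module, were read in 6 lists, beside shares of 4.19% higher and 7.51% lower over all genes. Among the 7536 brightest genes these shares were 7.6% and 16.4%. Of 38 genes of translocation and ER exit, 2 rose (5.3%) and 1 fell (2.6%), so the share that rose was near that of all genes, and the median change was 0.04. Sec23b and Sec24d, coat subunits of the vesicles that leave the ER, rose by 0.58 (SE 0.13) and 0.41 (SE 0.11), and Stt3b, a catalytic subunit that attaches glycans, fell by 0.32 on the log2 scale (SE 0.07). Of 35 further ERAD and folding genes, 5 rose (14.3%) and 3 fell (8.6%), with a median of 0.05. Os9 and Erlec1, lectins that hand trimmed glycoproteins to the ubiquitin ligase encoded by Syvn1, rose by 0.67 (SE 0.07) and 0.48 (SE 0.08). Ufd1, a cofactor of the segregase that pulls proteins out of the ER membrane, and Ero1a, an oxidase that recharges the disulfide isomerases, fell, at -0.52 (SE 0.07) and -1.88 (SE 0.07). Ero1a was at 10.77 to 10.87 in untreated and at 8.89 to 9.00 in degarelix samples, while its relative Ero1b, at 7.07 to 7.20, rose by 0.54 (SE 0.11). Ero1b, Wfs1 (0.49), Fkbp2 (0.35) and the segregase gene Vcp (-0.24), which make up the rest of these calls, were named after their values were seen.

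Of 32 targets of ATF4 outside the module, 5 fell (15.6%) and 2 rose (6.2%), with a median of -0.05. Over all genes 7.51% fell and 4.19% rose, and among the 7536 brightest genes 16.4% fell and 7.6% rose. The share of these targets that fell was thus near that of the brightest genes, although the sets differ in brightness. On at least 3 arrays 26 of the 32 targets were above background, against all 7536 brightest genes. Shmt2 and Mthfd2, enzymes of mitochondrial one-carbon metabolism, fell, at -0.79 (SE 0.13) and -0.65 (SE 0.13), as did the alanine aminotransferase gene Gpt2 at -0.54 (SE 0.10). The other calls, named after their values were seen, were Psph at -0.50 and Cth at -0.44. Nupr1, a stress-induced chromatin protein gene, and Vegfa, the vascular growth factor gene, rose by 0.67 (SE 0.10) and 0.41 (SE 0.10). Of 11 aminoacyl-tRNA synthetase genes, several of them ATF4 targets, 2 fell (18.2%; Gars at -0.77, SE 0.09, and Eprs at -0.32, SE 0.07) and 0 rose (0 higher and 6 lower at an unadjusted p under 0.05 in limma), with a median of -0.26. At an unadjusted p under 0.05 in limma, 4505 of all 30142 genes and 2457 of the 7536 brightest genes were lower. The share of synthetase genes that fell was near the 16.4% of the brightest genes. Of 23 upstream regulators 1 rose (4.3%, near the share of all genes) and 3 fell, with a median of -0.09. Creb3l2, an ER-bound transcription factor related to ATF6, rose by 0.78 (SE 0.07) from 9.25 to 9.35 in untreated to 10.04 to 10.17 in degarelix samples. Of the subunits of eIF2B, the exchange factor that the integrated stress response inhibits, 2 fell, with Eif2b4 at -0.58 (SE 0.09) and Eif2b1 at -0.49 (SE 0.10), as did the kinase gene Eif2ak2 at -0.36 (SE 0.07), whose values lay within the background range on all 6 arrays. Of 18 heat shock genes, most of them cytosolic, 2 rose and 2 fell (11.1% each, median 0.03): the small heat shock genes Hspb8 and Cryab at 0.92 (SE 0.15) and 0.53 (SE 0.13), and the mitochondrial chaperonin genes Hspd1 and Hspe1 at -0.45 (SE 0.10) and -0.27 (SE 0.07).

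**Figure D5:**
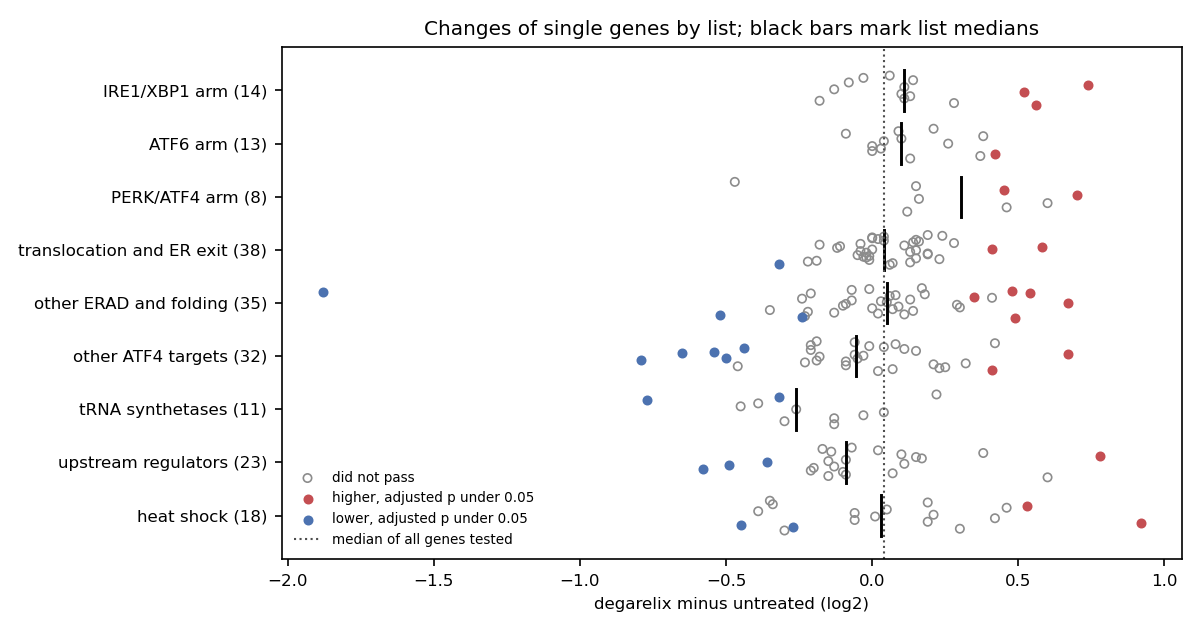
Change of each gene, degarelix minus untreated (log2), in the 3 arms of the module and in 6 further lists with the number measured in brackets; filled symbols passed the test (red higher, blue lower), black bars are list medians and the dotted line is the median of all genes (0.04). The further ATF4 targets hold 5 filled symbols below 0 and 2 above, and the 11 tRNA synthetases 2 below. The 2 filled symbols below 0 among the heat shock genes are mitochondrial chaperonin genes.

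Of the 28 calls in these further lists, 10 were kept on leaving out any sample: Ero1a, Ufd1, Os9, Erlec1, Shmt2, Nupr1, Gars, Eif2b4, Creb3l2 and Hspb8. The number lost was 17 without degarelix replicate 1 (limma adjusted p up to 0.166), 12 without degarelix replicate 2 (up to 0.172), 6 without degarelix replicate 3 (up to 0.0818), 1 without untreated replicate 1 (Sec24d, 0.0721), 11 without untreated replicate 2 (up to 0.172) and 14 without untreated replicate 3 (up to 0.149). The lowest adjusted p among these losses was 0.0502. Over all genes 3526 passed in the main fit, and 1590, 1833 and 3817 passed without degarelix replicate 1, 2 or 3. Without untreated replicate 1, 2 or 3 the numbers were 4700, 2113 and 1972. With median centring of the arrays Sec23b, Sec24d, Ero1b, Fkbp2, Vcp, Vegfa, Cryab and Hspe1 did not pass (limma adjusted p = 0.0573 to 0.136), and Eprs, Vcp and Hspe1 did not with quantile normalization (0.055 to 0.202) or cyclic loess (0.103 to 0.221). Directions were the same in each of these.

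The matches were then set beside the changes. Of the 9 members with an ERSE in the window, 1 rose (Pdia6) and 0 fell (0 lower at an unadjusted p under 0.05 in limma), with changes from -0.09 (Canx) to 0.42 and a median of 0.14. Over all genes 4.19% rose and 7.51% fell, beside 1 call among these 9 genes. Creld2, Syvn1 and Hspa5 followed Pdia6 in size, at 0.38, 0.28 and 0.26, and Hsp90b1, which holds 2 matches, was at 0.04. The remaining called members with a window but no ERSE match in it were Dnajb9, Xbp1, Edem2, Ddit3 and Chac1. Among genes outside the module, 28 held an ERSE in the window and 20 of them were measured; of these 3 rose (Ero1b, Acacb and Zfp57) and 1 fell (Pan2), and their median was 0.03. Acacb, Zfp57 and Pan2 were named after their values were seen. Of the 3 members of the PERK/ATF4 arm with the C/EBP-ATF element, Chac1 rose by 0.45, Trib3 was at 0.12 and Asns at -0.47. Outside the module, the window held the element in 7 measured ATF4 targets, of which 1 passed the test (Nupr1, higher), with changes from -0.46 to 0.67, and lacked it in 19, of which 1 rose and 4 fell. It was also found in 4 tRNA synthetase genes, of which 1 fell (Gars), and not in 3, of which 1 fell (Eprs). These are descriptions of 1 window per gene, and no factor was measured on these promoters.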

How the data were processed

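RNA from sorted tumor cells of 6 samples (3 untreated, 3 degarelix) was hybridised to 1 array each. Per the submitters' processing notes, the authors used Affymetrix Expression Console and RMA for the deposited log2 values; versions and settings are not given there. RMA corrects background, normalizes between arrays and summarises probes per cluster, which compresses changes of dim genes. The log2 scale was read from the values (1.96 to 13.69). The number of arrays limits the precision.

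Of 72688 rows 6732 control rows, background probe sets included, were dropped. Of 65956 clusters, 30604 had 1 gene symbol in the platform annotation, 2146 several and 33206 none. Symbols were updated through Entrez identifiers (827 changed), and the brightest cluster stood for each of 30142 genes. The unit is a probe set level and not an amount of RNA. Marker levels were summed on the linear scale, where the brightest probe sets weigh most. The 7536 brightest genes were taken by mean level over all arrays. Levels of different genes were otherwise not compared. Near-identical paralogs may share signal. Degarelix and untreated samples were compared with lmFit and eBayes of limma 3.58.1 (R 4.3.3), two-sided. All genes were adjusted together. On simulated data for this comparison with 30142 genes, limma called 96 of 100 genes changed by a log2 of 1, 40 of 100 changed by 0.5 and 6 of 29942 unchanged genes. The simulated data held far fewer changed genes than the 3526 called in the real data. Their noise was independent between genes, without sample differences shared by many genes. These rates therefore need not hold for the real data.

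The members, arms, further lists and markers were chosen with earlier results of these data known. Named were all members and, from each further list, up to 4 called genes with the smallest adjusted p and up to 2 called against the direction of most calls. Alternatives were median centring, quantile normalization and cyclic loess; robust variances with an intensity trend; array weights; leaving out dim genes; averaged clusters; a block for the replicate number; other arms; and leaving out each sample. As a further alternative, the second Ddit3 cluster was added after seeing the data. Promoter windows and gene names came from RefSeq (GRCm38.p6). Tables and figures used Python 3.11.15, pandas 2.3.3 and matplotlib 3.10.9.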

Additional observations from a re-analysis of the deposited data

How the results depend on the processing

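The count of 6 members higher was 4 with median centring, 11 with quantile normalization and 11 with cyclic loess, and ranged from 4 to 8 on leaving out single samples. The count of 0 members lower (2 at an unadjusted p under 0.05 in limma) was 1 with quantile normalization, with an intensity trend and robust variances and with the filter on dim genes, and 2 with array weights; on leaving out single samples it ranged from 0 to 1. That member was Asns, joined by Ssr1 with array weights. With array weights 4860 of all 30142 genes were lower, against 2264 in the main fit. Cyclic loess moved the arm medians from 0.11 to 0.22 for IRE1/XBP1 and from 0.10 to 0.23 for ATF6. The ATF6 median was 0.21 with quantile normalization, 0.06 with median centring and 0.04 with array weights. That of IRE1/XBP1 was 0.06 with median centring and 0.07 with array weights, and that of PERK/ATF4 went from 0.30 to 0.18 with array weights. The cause was not tested. On leaving out single samples they ranged from 0.08 to 0.13 for IRE1/XBP1, from 0.04 to 0.17 for ATF6 and from 0.13 to 0.37 for PERK/ATF4. No member that passed the test changed direction under an alternative run for it.

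Same-numbered samples had correlated deviations of 0.16, 0.04 and 0.20, and each of the 6 samples correlated best with its own number. The main fit did not take the numbers as pairs, and whether same-numbered samples share an effect was not tested. With the replicate number as a block, 7 members were higher and 1 lower. The calls gained were Ppp1r15a, higher (limma adjusted p = 0.0376), and Asns, lower (limma adjusted p = 0.0269). The signal of Derl2 and Derl3 over background limits what can be said of them.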
